A study of Mus musculus with 4 samples.

Results

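Cycling epithelial cells of the mouse colon were described in 2 droplet libraries of single cells. A barcode was taken as such a cell when it held 1000 or more gene UMIs (unique molecular identifiers, each standing for 1 captured transcript), 250 or more genes, no more than 25% of UMIs from mitochondrial genes, at least 3 UMIs of the epithelial genes Epcam and Krt8, and at least 4 UMIs of the proliferation genes Mki67 and Top2a. It also had to hold under 5 UMIs of the goblet mucin Muc2, at most 2 of the enteroendocrine granule genes Chga and Chgb, under 5 of the surface colonocyte genes Aqp8 and Clca4a, none of the leukocyte gene Ptprc, and under 0.5% of its UMIs from the calprotectin genes S100a8 and S100a9. This gave 697 of 13158 barcodes that passed the UMI, gene and mitochondrial limits, 559 in batch 1 and 138 in batch 2. The working name of these cells was cycling transit-amplifying cells. The rule itself makes them cycling by their transcripts, while transit-amplifying is a position in the crypt that was not measured, so they are called cycling epithelial cells below.

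The study set untreated wildtype mice, untreated JUP-KO mice, and wildtype and JUP-KO mice given DSS (dextran sulfate sodium, a colitis-inducing agent) beside each other, all on strain C57/BL6J. JUP is junction plakoglobin, an armadillo-repeat protein of desmosomes and adherens junctions and a close relative of beta-catenin. Cells of each condition were labelled with their own hashtag antibody, pooled, sorted for viability and run as 1 library per batch, so the condition of a cell is known only through its tag. The labels used here give neither the number, age or sex of the mice, nor the DSS dose and time, nor the promoter or cell type in which Jup was deleted. Where nothing says that the batches came from separate animals, p-values measure only the spread between these pooled samples.

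The colonic crypt renews from stem cells at its base, whose daughters divide several times while they move up and then leave the cell cycle as absorptive or secretory cells. During S phase the MCM helicase, the clamp protein Pcna and the polymerases copy the DNA, and the enzymes of nucleotide synthesis supply the building blocks. In G2 and M the cyclin-dependent kinase Cdk1 with its cyclins, the polo and aurora kinases, the spindle motors and the kinetochore separate the chromosomes, and the anaphase promoting complex then destroys the cyclins. The genes of G2 and M are transcribed late through promoters that often carry CCAAT boxes and a cell cycle homology element, whereas many S-phase genes carry binding motifs of E2F.

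These elements can be read in the promoters of the genes on which the description turns. The bases before the start site are shown for Mki67 and Top2a, which chose the cells, for Cenpf and Plk1 from the mitotic genes, and for Mcm5 and Mcm3 from the replication genes. Apart from Mki67 and Top2a, these were taken for their large ratio to non-dividing cells. Each stretch holds 200 bases of RefSeq sequence on GRCm38.p6, written 5′ to 3′ on the gene's strand and ending at the base before the annotated start. Capitals mark, on either strand, the CCAAT box, the core of the cell cycle homology element, spelled TTTGAA and called CHR below, and a core of E2F motifs, spelled TTTNNCGC.
Mki67, chr7:135716380-135716579, minus strand: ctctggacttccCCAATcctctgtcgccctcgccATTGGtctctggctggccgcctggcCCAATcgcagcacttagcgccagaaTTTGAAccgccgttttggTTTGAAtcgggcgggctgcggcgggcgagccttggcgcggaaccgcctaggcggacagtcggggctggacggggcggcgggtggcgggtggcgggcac
Top2a, chr11:99024190-99024389, minus strand: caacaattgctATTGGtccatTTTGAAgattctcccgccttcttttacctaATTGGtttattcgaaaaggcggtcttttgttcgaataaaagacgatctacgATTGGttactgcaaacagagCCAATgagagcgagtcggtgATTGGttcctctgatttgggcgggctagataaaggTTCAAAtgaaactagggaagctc
Cenpf, chr1:189688087-189688286, minus strand: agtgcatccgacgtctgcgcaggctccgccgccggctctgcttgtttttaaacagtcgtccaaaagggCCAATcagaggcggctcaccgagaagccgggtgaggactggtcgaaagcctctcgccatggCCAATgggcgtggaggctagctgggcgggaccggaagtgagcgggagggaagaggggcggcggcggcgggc
Plk1, chr7:122159235-122159434, plus strand: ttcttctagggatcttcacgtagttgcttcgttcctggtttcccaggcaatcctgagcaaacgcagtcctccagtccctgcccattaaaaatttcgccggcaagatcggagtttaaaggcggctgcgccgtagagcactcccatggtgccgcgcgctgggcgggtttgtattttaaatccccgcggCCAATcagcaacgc
Mcm5, chr8:75109309-75109508, plus strand: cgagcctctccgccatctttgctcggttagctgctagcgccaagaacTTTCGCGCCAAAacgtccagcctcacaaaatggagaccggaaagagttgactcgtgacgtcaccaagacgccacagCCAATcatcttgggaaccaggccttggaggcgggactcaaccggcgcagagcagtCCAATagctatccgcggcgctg
Mcm3, chr1:20820313-20820512, minus strand: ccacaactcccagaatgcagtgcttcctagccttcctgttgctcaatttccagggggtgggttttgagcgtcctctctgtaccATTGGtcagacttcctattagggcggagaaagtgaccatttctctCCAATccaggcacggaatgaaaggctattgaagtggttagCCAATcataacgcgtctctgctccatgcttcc

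Over 250 bases before the start, Mki67 held 3 CCAAT and 2 CHR cores, and Top2a held 6 CCAAT and 2 CHR cores. Ube2c, the ubiquitin-conjugating enzyme of the anaphase promoting complex, likewise held 6 CCAAT with a single CHR core that begins at base -29. Mcm5 was the example with the E2F motif, in 2 overlapping matches that begin at bases -153 and -149. The same window of Nusap1, a spindle protein, and of the clamp loader genes Rfc4 and Rfc5 held none of the 3 motifs. Of the 69 genes of the G2/M lists used below, 62 matched a RefSeq window. Of their 68 windows 67.6% held CCAAT, 36.8% held at least 2 of them, 23.5% held CCAAT together with CHR, and 14.7% held the E2F motif. Of the 40 genes of the S lists, 33 matched. Of their 41 windows 61.0% held CCAAT, 29.3% held at least 2 of them, 9.76% held it with CHR, and 26.8% held the E2F motif. Among all 32851 windows the shares were 33.8% for CCAAT, 10.1% for at least 2, 5.55% for CCAAT with CHR and 4.28% for the E2F motif. Windows of genes above 20 CPM in these cells or in non-dividing cells came closer in base composition, with a median GC content of 60.4%, against 52.4% for all windows, 59.6% for the G2/M lists and 61.2% for the S lists. Their shares were 35.4% for CCAAT, 13.5% for at least 2, 4.31% for CCAAT with CHR and 7.25% for the E2F motif. The 18 windows of absorptive genes held CCAAT in 33.3% and the E2F motif in 5.56%. A match describes letters, and binding was not measured.

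The 2 libraries held 133919905 and 95408149 gene UMIs. The cycling cells were deep, with a median of 27173 UMIs and 5191 genes in batch 1 and 33363 UMIs and 5781 genes in batch 2, against 15201 and 16010 UMIs in non-dividing epithelial cells. Of the cycling barcodes, 30 in batch 1 and 15 in batch 2 exceeded 60000 UMIs, and 19 and 4 carried more than 1 tag. No doublet caller was run, and the part of doublets in the values below was not tested beyond leaving these barcodes out. Members of the 2 batches shared 0 barcodes, and 13 barcodes were shared among all that passed the limits.

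Before any comparison between tags, Jup itself was read in the tagged cells, because it goes against some of the tag names. In the files the 4 tags appear in the order Ctrl_WT, Ctrl_DSS, TG_WT, TG_DSS, and nothing pairs a name with an antibody. Read by name, Ctrl_DSS would be DSS-treated wildtype and TG_WT untreated JUP-KO. The labels number the antibodies 1 for wildtype, 2 for JUP-KO, 3 for DSS-treated wildtype and 4 for DSS-treated JUP-KO. If the order of the files follows these numbers, Ctrl_DSS would be untreated JUP-KO and TG_WT DSS-treated wildtype. Ctrl_WT and TG_DSS mean untreated wildtype and DSS-treated JUP-KO either way.

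Jup (ENSMUSG00000001552, GRCm38 chr11:100368958-100397763, minus strand) was counted at 12.6 CPM in batch 1 and 7.05 in batch 2 in cycling cells labelled Ctrl_DSS, where CPM is the UMIs of a gene per 1000000 gene UMIs of the summed cells. Cells labelled TG_WT held 83.2 and 120 CPM. Cells labelled TG_DSS held 10.6 CPM in batch 1 and 118 in batch 2, and those labelled Ctrl_WT held 21.0 and 96.0 CPM from 4 and 11 Jup UMIs. Jup was thus low in both batches under a tag named for control mice and high in both under a tag named for TG mice, and the TG_DSS cells of batch 2 were high although both readings make them JUP-KO. Over all gated epithelial cells, which are the barcodes that pass the rule without the Mki67 and Top2a step, Jup was 12.5 and 7.47 CPM for Ctrl_DSS, 83.7 and 116 for TG_WT, 13.9 and 79.6 for TG_DSS and 65.9 and 67.2 for Ctrl_WT. The files do not settle which reading holds, so groups are called by their tags below. The share of cycling cells, the counts of called genes and Jup are given with and without the TG_DSS cells of batch 2. Levels of other genes under the tags are given by batch.

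**Figure D1:**
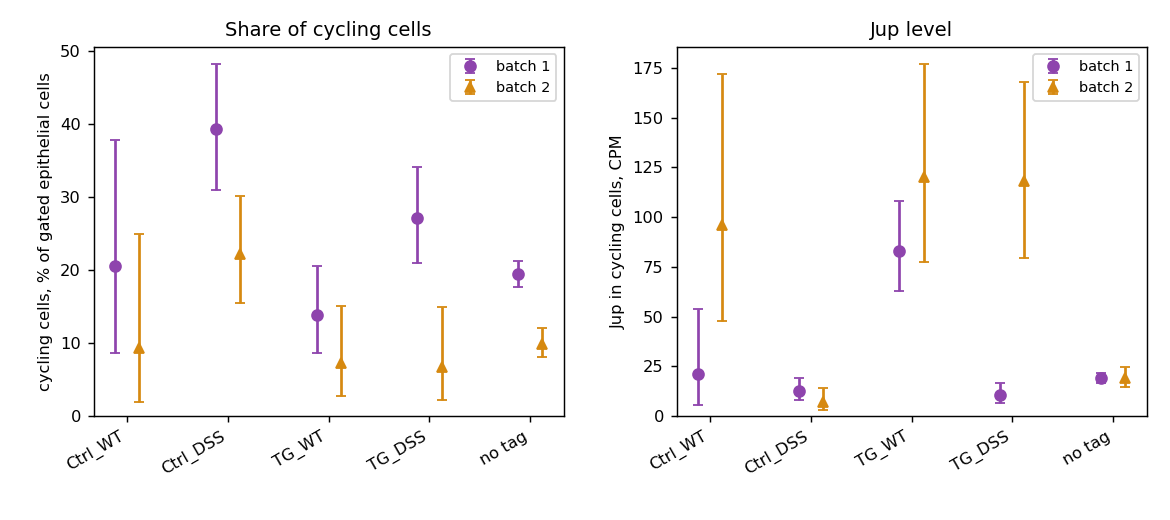
Left, cycling cells as a percentage of gated epithelial cells under each tag, with exact 95% intervals. Right, Jup in cycling cells in CPM, with exact 95% Poisson intervals that cover counting error only. Circles are batch 1 and triangles batch 2, and Jup lies at 12.6 and 7.05 CPM under Ctrl_DSS but at 83.2 and 120 CPM under TG_WT.

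The steps of the rule differed in how many barcodes they removed. Of 8619 barcodes with enough Epcam and Krt8, 1145 also had the 4 UMIs of Mki67 and Top2a. The Muc2 limit removed 194 of these, the Chga and Chgb limit 23, the Aqp8 and Clca4a limit 97, Ptprc 124 and calprotectin 10. Mki67 (chr7:135689784-135716361, minus strand), a coat protein of mitotic chromosomes, had a median of 5 UMIs in batch 1 and 6 in batch 2, with 21 and 3 cells at 0. Top2a (chr11:98992943-99024189, minus strand), the topoisomerase that untangles replicated DNA, had medians of 7 and 8 UMIs, with 31 and 7 cells at 0.

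Just inside it, at 4 UMIs, 70 and 11 cells held Birc5 at 156 and 216 CPM, Ube2c at 72.3 and 137.5 CPM, Cdk1 at 61.5 and 99.98 CPM and Car1 at 2989 and 1628 CPM. Just outside, at 3 UMIs, 83 and 33 cells held Birc5 at 142 and 119 CPM, Ube2c at 93.3 and 103 CPM, Cdk1 at 49.6 and 31.7 CPM and Car1 at 4341 and 3737 CPM.

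Markers of other cells were present and uneven across tags. The 15 leukocyte markers summed to 61.1 CPM in batch 1 and 155 in batch 2, against 121 and 300 CPM in non-dividing epithelial cells, with the T-cell genes Cd3e and Cd3g at 0 in both batches and Ptprc at 0 by the rule. The 10 stromal and endothelial markers summed to 18.3 and 8.98 CPM, with Cdh5 and Kdr at 0 in both batches. In cells with a single tag the leukocyte sum ran from 30.0 to 87.7 CPM, except for the 7 Ctrl_WT cells of batch 1 at 1720 CPM, of which the macrophage lysozyme Lyz2 made up 1420. Those 7 cells also held the goblet list at 5802 CPM, against 166 to 916 CPM in the other tag sums, with the goblet genes Agr2 at 3577 and Spink4 at 2041 CPM. The enteroendocrine and tuft list stood at 2749 CPM in the 20 TG_WT cells of batch 1, nearly all from Gcg and Pyy, against 0 to 21.0 CPM in the other tag sums. The TG_WT sum of batch 1 enters the contrasts with TG_WT, and the part of these other transcripts in them was not tested. The 11 epithelial markers summed to 9140 and 9980 CPM with none at 0.

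Levels in the cycling cells were set beside 3 groups of gated epithelial cells with no Mki67 or Top2a UMI. These were all 1594 and 950 non-dividing cells of the 2 batches, the 81 and 21 of them with a UMI of the stem-cell receptor Lgr5, and the 468 and 379 with at least 1% of UMIs from the colonocyte enzyme Car1. The rule chose cells by transcripts, so every value of these comparisons is a description and no test was made. A gene was called higher or lower when it differed at least 2-fold in the same direction in both batches and reached 20 CPM in the higher group, with 1 CPM added before ratios. Of 6336 genes with that level, 709 were higher in cycling than in non-dividing cells (11.2%) and 392 lower (6.19%). Against the Lgr5 cells 265 of 6299 were higher (4.21%) and 135 lower (2.14%), and against Car1-high cells 1402 of 6348 were higher (22.1%) and 585 lower (9.22%). The median log2 ratio over all these genes was 0.17 against non-dividing cells and 0.09 against Lgr5 cells. The Lgr5 group was mixed, since the tuft-cell kinase gene Dclk1 reached 144 and 242 CPM there against 1.84 and 0.204 in cycling cells.

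The 3 proliferation markers that the rule did not name were all high. Ube2c (chr2:164769898-164778822, plus strand) was 438.5 CPM in batch 1 and 399 in batch 2, against 7.41 and 4.42 in non-dividing cells. Birc5 (survivin, chr11:117849251-117855743, plus strand), the subunit that brings aurora B to the centromere, was 330.9 and 337.2 CPM against 8.72 and 4.30. Stmn1 (stathmin, chr4:134468320-134473843, plus strand), which destabilises microtubules, was 804 and 712 CPM against 115 and 55.3. Stmn1 differed from the other markers in the Lgr5 cells, where it stood at 453 and 374 CPM, while Ube2c stood at 12.7 and 3.23 CPM and Birc5 at 5.91 CPM and 0. After thinning every cell to 2000 UMIs, a Stmn1 UMI was seen in 68.5% and 68.6% of cycling cells, 46.2% and 28.6% of Lgr5 cells, 15.3% and 8.04% of non-dividing cells and 1.86% and 2.57% of leukocyte barcodes. Leukocyte barcodes, defined by at least 3 Ptprc UMIs and no Epcam or Krt8 UMI, should lack most crypt genes and had median depths of 3581 and 5152.5 UMIs before thinning.

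**Figure D2:**
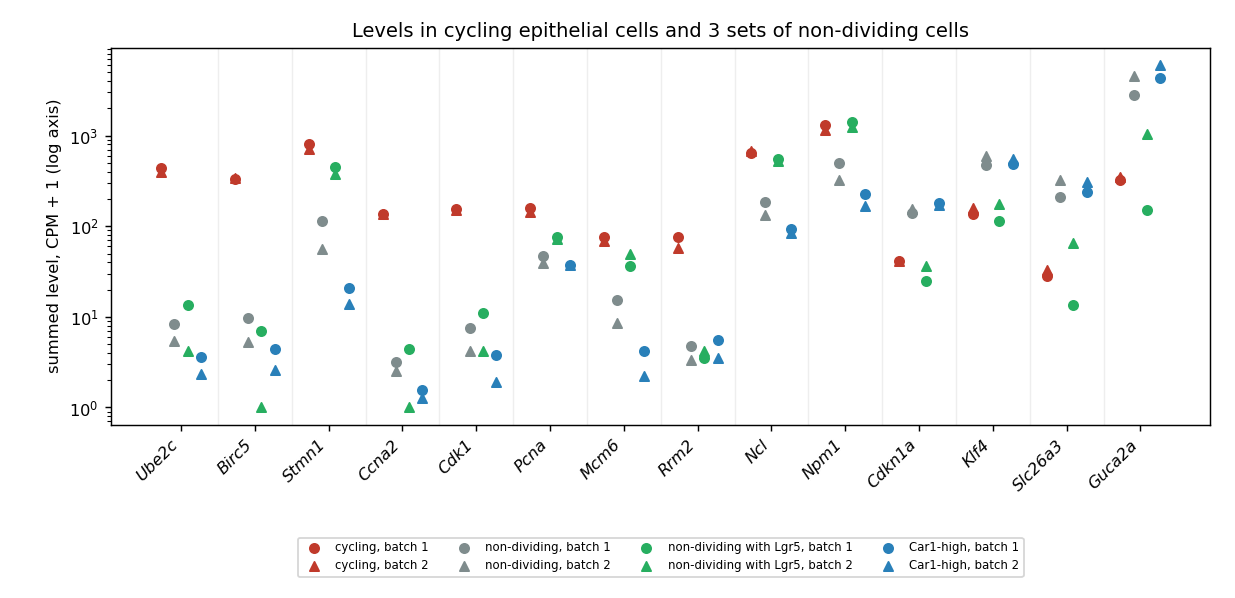
Summed level of 14 genes in CPM plus 1 on a log axis, in cycling cells and 3 groups of epithelial cells without Mki67 or Top2a UMIs, batch 1 as circles and batch 2 as triangles. Mitotic genes such as Ube2c and Birc5 are far above all 3 groups, whereas Stmn1, Ncl and Npm1 of the Lgr5 cells lie close to the cycling cells.

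Genes that start and run DNA replication were higher than in non-dividing cells, and fewer of them were called against Lgr5 cells. Of 16 genes for origin licensing and firing, 9 reached the level, and 9 of these were higher than in non-dividing cells and 0 than in Lgr5 cells, where the share over all genes was 4.21%. Mcm6, a subunit of the replicative helicase, was 75.4 and 68.6 CPM in cycling cells, 14.4 and 7.57 in non-dividing cells and 35.4 and 48.4 in Lgr5 cells. Mcm5 (chr8:75109569-75128439, plus strand) was 41.4 and 37.1 CPM against 5.08 and 2.76. Of 24 replication fork genes 18 reached the level, with 16 higher than in non-dividing cells and 6 than in Lgr5 cells. Pcna, the sliding clamp, was 158 and 143 CPM against 46.0 and 38.5 in non-dividing cells and 75.1 and 71.0 in Lgr5 cells. The 6 that also exceeded Lgr5 cells were the clamp loader subunits Rfc4 and Rfc5, the flap nuclease Fen1, the ligase Lig1, the single-strand binding subunit Rpa2 and Uhrf1, which recruits the maintenance methyltransferase.

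Enzymes of nucleotide synthesis split in a similar way. Of 20 listed, 17 reached the level, 16 were higher than in non-dividing cells and 5 than in Lgr5 cells. Among those 5 were Tyms and Tk1, which make thymidylate, and Rrm1 and Rrm2, the subunits of ribonucleotide reductase. Rrm2, the regulated one of these subunits, was 75.03 and 57.15 CPM against 3.72 and 2.37 in non-dividing cells and 2.53 and 3.23 in Lgr5 cells. The purine enzyme Paics ran differently, at 72.8 and 68.0 CPM in cycling cells, 47.3 and 38.8 in non-dividing cells and 132 and 106 in Lgr5 cells.

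Genes of mitosis were higher in cycling cells than in non-dividing cells and, with few exceptions, than in Lgr5 cells. Of 28 spindle and cytokinesis genes 26 reached the level, all 26 were higher than in non-dividing cells and 24 than in Lgr5 cells. The 2 exceptions against Lgr5 cells were Stmn1 and the midbody kinase Cit. Nusap1 was 142 and 151 CPM against 2.29 and 0.705, and Tpx2, which activates aurora A on the spindle, was 89.2 and 92.9 CPM against 1.84 and 1.35. Of 19 kinetochore genes 17 reached the level, with 16 higher than in non-dividing cells and 15 than in Lgr5 cells. Cenpf, a kinetochore protein of late G2, was 182 and 173 CPM against 3.81 and 1.41 in non-dividing cells and 9.28 and 9.68 in Lgr5 cells. Zwint, a kinetochore scaffold, was the gene below 2-fold in both comparisons, at 38.4 and 37.4 CPM against 18.8 and 21.1 in non-dividing cells.

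All 15 genes of the passenger complex and spindle checkpoint were higher than in non-dividing cells and 14 than in Lgr5 cells. Plk1, the polo kinase of mitotic entry, was 59.6 and 63.9 CPM against 0.573 and 0.449, and the aurora kinase Aurkb was 59.0 and 59.6 CPM against 0.696 and 0.705. The checkpoint protein Bub3 was the one not called against Lgr5 cells, at 102 and 98.4 CPM against 44.7 and 58.0. Of 6 partners of the anaphase promoting complex with the level, 5 were higher in both comparisons, among them its activator Cdc20 at 96.5 and 104 CPM against 2.29 and 1.28. The activator of G1, Fzr1, was the exception at 22.1 and 22.4 CPM against 15.6 and 18.4. Nearly every listed mitotic gene with the level was thus called in both comparisons. The choice of cells by Mki67 and Top2a, themselves late genes, largely sets this outcome. Genes such as Plk1 and Aurkb also reached the level through the cycling cells and not the non-dividing ones.

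Chromatin and repair genes followed. All 16 genes of chromosome structure were higher than in non-dividing cells and 11 than in Lgr5 cells. The chromatin protein Hmgb2 was 1807 and 1825 CPM against 192 and 130, and the condensin subunit Smc2 was 148 and 145 CPM against 6.18 and 5.58. Of 14 replication-dependent histone genes 12 reached the level against non-dividing cells and 10 were higher, led by the linker histone gene Hist1h1b at 264 and 249 CPM against 2.29 and 1.48. Hist1h1c and Hist1h2bc were the 2 that were not, with Hist1h1c at 56.4 and 60.2 CPM against 84.5 and 95.9. The libraries capture polyadenylated RNA, and most transcripts of these histone genes lack a poly(A) tail, so their levels cover only a part. Of 22 repair genes 9 reached the level, and 9 were higher than in non-dividing cells and 5 than in Lgr5 cells, among them the replication checkpoint gene Clspn at 39.0 and 27.6 CPM against 1.35 and 0.257 in non-dividing cells.

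**Figure D3:**
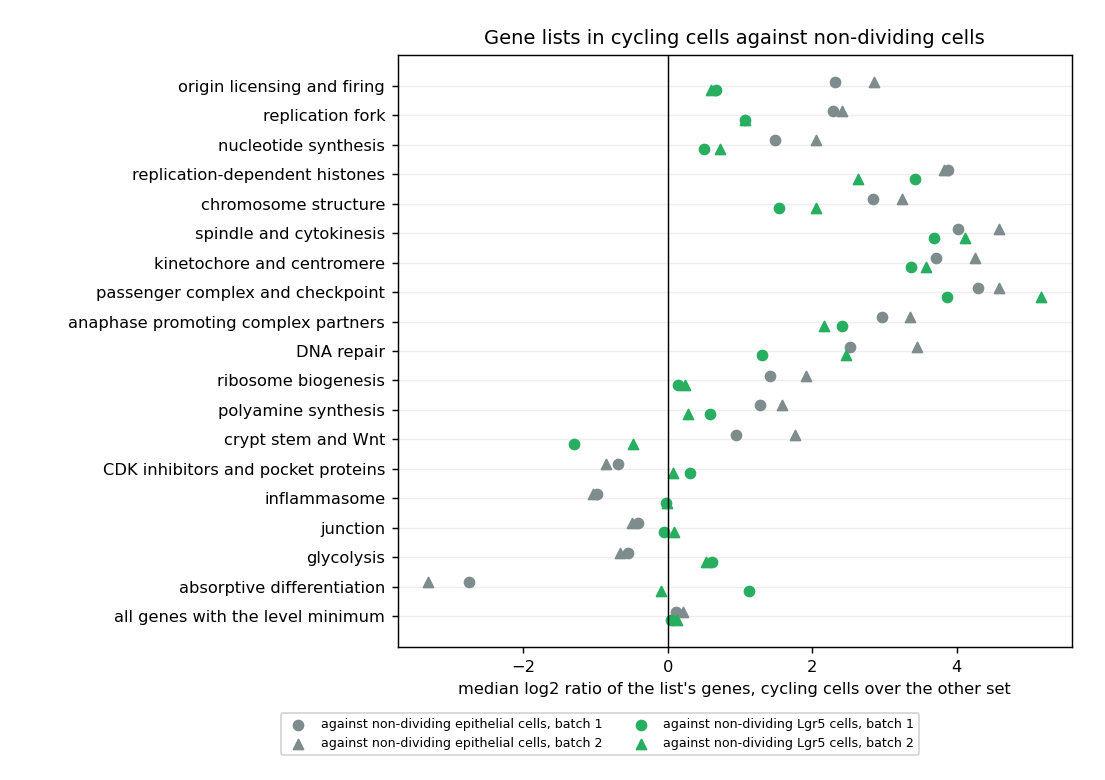
Median log2 ratio of each gene list, cycling cells over non-dividing epithelial cells in grey and over non-dividing Lgr5 cells in green, circles for batch 1 and triangles for batch 2. Spindle, kinetochore and checkpoint lists lie at 3.37 or more in every comparison, while licensing and ribosome biogenesis lists lie near 0 to 1 against Lgr5 cells.

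Among the drivers of the cycle, the mitotic cyclins had the largest ratios. Of 17 cyclin and kinase genes 11 reached the level, 7 were higher than in non-dividing cells and 4 than in Lgr5 cells. Those 4 were Ccna2, Ccnb1, Ccnb2 and Cdk1. Ccna2 (cyclin A) was 136 and 134 CPM against 2.21 and 1.54, and Cdk1 was 153 and 151 CPM against 6.59 and 3.21. Cyclins that act in G1 differed less, with Ccnd1 at 180 and 189 CPM against 87.9 and 61.8 and Ccnd2 at 251 and 289 CPM against 191 and 178. The G1 kinase gene Cdk6 was 66.6 and 69.2 CPM, below the 208 and 100 CPM of Lgr5 cells.

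Several inhibitors of the cycle ran the other way. Of 14 genes of kinase inhibitors, pocket proteins and related brakes 10 reached the level, 5 were lower and 1 higher than in non-dividing cells. Cdkn1a (p21) was 40.0 and 40.8 CPM against 139 and 154, and Cdkn2b (p15) was 10.9 and 13.9 CPM against 72.8 and 98.3. The antiproliferative genes Btg1 and Btg2 and the cyclin-like gene Ccng2 were the other 3. Cdkn2d (p19) was the gene that was higher, at 23.9 and 26.5 CPM against 6.71 and 7.12. Against Lgr5 cells Cdkn1a was not lower, at 23.6 and 35.5 CPM there.

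Of 18 transcription factor genes of the cycle 9 reached the level, and 4 were higher than in non-dividing cells. E2f8, a repressor of E2F targets, was 35.6 and 31.4 CPM against 2.37 and 1.41. The other 3 were Tfdp1, the partner subunit of E2F, and Lin9 and Lin54, subunits of the complex that binds cell cycle homology elements. Foxm1 and Mybl2, activators of late genes, stayed under the level at 14.8 and 16.3 CPM and at 12.1 and 9.59 CPM.

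Growth genes were next compared in the same way. Of 24 genes of ribosome biogenesis 21 reached the level, 20 were higher than in non-dividing cells, and 0 of 22 than in Lgr5 cells, near the share over all genes. Nucleolin (Ncl) was 641 and 670 CPM against 183 and 132 in non-dividing cells and 554 and 529 in Lgr5 cells. Nucleophosmin (Npm1) was 1322 and 1156 CPM against 503 and 321, with 1402 and 1248 in Lgr5 cells. All 4 polyamine genes were higher than in non-dividing cells and 0 than in Lgr5 cells, with the first enzyme of the pathway, Odc1, at 125 and 134 CPM against 59.3 and 50.7. Of 12 glycolysis genes 0 were higher and 1, Aldoa, was lower than in non-dividing cells, at 341 and 349 CPM against 840 and 999.

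Crypt and differentiation genes were read in the remaining lists. Of 22 crypt and Wnt genes 12 reached the level, and 5 were higher than in non-dividing cells, namely Smoc2, Cdca7, Slc12a2, Lrig1 and Cd44. Against Lgr5 cells 15 reached the level and 6 were lower, namely Lgr5, which chose that group, Smoc2, Axin2, Rnf43, Sox9 and Ephb3. Smoc2, a matrix protein gene of crypt base cells, was 39.3 and 39.2 CPM, between 15.7 and 5.71 in non-dividing cells and 132 and 96.8 in Lgr5 cells. Sox9, a crypt transcription factor gene, was 115 and 117 CPM against 255 and 248 in Lgr5 cells.

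Of 20 absorptive genes 18 reached the level, and 16 were lower than in non-dividing cells and 0 higher. Car1 (chr3:14766216-14808368, minus strand) was 2368 and 1413 CPM against 17390 and 22670, and the chloride exchanger gene Slc26a3 was 27.4 and 31.6 CPM against 212 and 321. The keratin gene Krt20 of surface cells was 44.9 and 61.4 CPM against 514 and 744. Against Lgr5 cells 2 were higher, Car1 at 124 and 593 CPM there and the fatty acid binding protein gene Fabp2 at 422 in both batches. Klf4, a factor of cell cycle exit in the upper crypt, was 137 and 158 CPM against 471 and 589 in non-dividing cells, and 115 and 174 in Lgr5 cells. Of the goblet list, Agr2, a secretory disulfide isomerase gene, was 513 and 630 CPM against 447 and 371 in non-dividing cells. It had a UMI in 90.0% and 93.5% of cycling cells.

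Junction, inflammasome and p38 genes were then read for the study's question. Over all genes 11.2% were called higher and 6.19% lower than in non-dividing cells. At those shares lists of this size would hold few calls, so a count of 0 is not read as a result about them. Of 13 junction genes 11 reached the level and 0 were called in either direction, with Jup at 20.2 and 27.8 CPM against 36.6 and 44.4 in non-dividing cells and 16.9 and 25.8 in Lgr5 cells. Of 14 inflammasome genes 11 reached the level, 0 were higher and 4 were lower than in non-dividing cells. Il18, the cytokine that caspase-1 matures, was 75.5 and 48.2 CPM against 309 and 360, and Naip1, a sensor of bacterial secretion proteins, was 25.3 and 26.3 CPM against 84.9 and 117. The other 2 were Il1rn and the gasdermin gene Gsdmc2. Casp1 (caspase-1) was 89.5 and 98.0 CPM against 178 and 201, just under 2-fold in batch 1, and the sensor gene Nlrp6 was 76.6 and 82.9 CPM against 92.5 and 96.3. Mapk14 (p38 alpha) was 25.3 and 24.5 CPM against 25.9 and 27.8, and 0 of 11 p38 genes with the level were called.

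Outside the lists, the 15 genes with the largest smaller-batch ratio in each direction were read. Among those that were higher were Esco2, the cohesin acetyltransferase of S phase, at 61.2 and 54.3 CPM against 0.409 and 0.128, and Pbk, a mitotic kinase, at 108 and 110 CPM against 1.68 and 0.577. Pclaf, a partner of Pcna, was 437 and 421 CPM against 13.0 and 6.80. The rest were Hist1h2af, Shcbp1, Nek2, Depdc1a, Melk, Ska1, Diaph3, Neil3, Cdca3, Cep55, Iqgap3 and Cdkn3. Among those that were lower were the transglutaminase gene Tgm3 at 11.7 and 4.08 CPM against 190 and 280 and Fxyd4, a regulator of the sodium pump in surface colonocytes, at 3.57 and 1.43 CPM against 63.3 and 174. The immunoglobulin genes Igkc and Igha were also lower, with Igkc at 2.38 and 17.4 CPM against 512 and 1640, and the plasma cell gene Jchain ran with them at 0.238 and 2.65 CPM against 56.3 and 205. After thinning, only 0.983% and 6.61% of non-dividing cells held an Igkc UMI. Barcodes with very few UMIs held Igkc at 789 and 3710 CPM, and the part of stray plasma cell transcripts was not tested. The remaining 11 were Saa1, Tmigd1, Mal, Sectm1b, Ifit1bl1, Upp1, Slc51a, Slc10a2, Slc13a2, Prss30 and Rhoc.

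Cells were then placed by their S and G2/M transcripts after thinning to 2000 UMIs, which left 558 and 137 cells. The S count summed 40 licensing and fork genes and the G2/M count summed 69 spindle, kinetochore, checkpoint and anaphase genes. The median cell held 3 S UMIs in both batches and 14 and 15 G2/M UMIs. G2/M exceeded S in 88.5% of cells in batch 1 and 82.5% in batch 2, against 58.2% and 58.9% of non-dividing cells and 50.0% and 57.1% of Lgr5 cells. The lists differ in number of genes and level, and Mki67 and Top2a are themselves late genes, so these shares do not give the duration of a phase. Across cells the 2 counts ran weakly against each other, with Pearson's r of -0.23 and -0.22 and Spearman's rho of -0.22 and -0.21 in the 2 batches, computed within a fixed total of UMIs that the counts share.

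**Figure D4:**
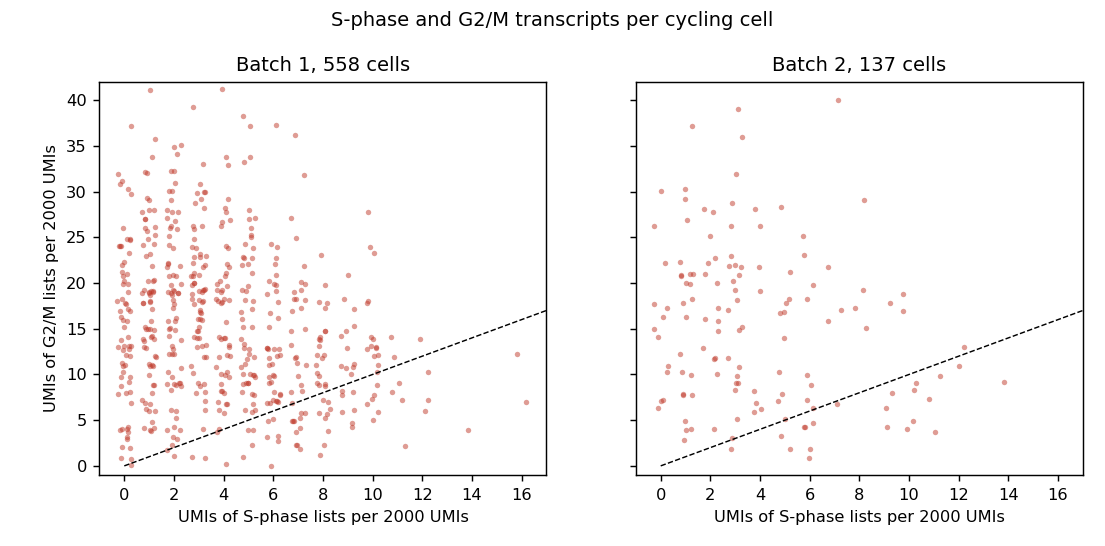
UMIs of the S lists and of the G2/M lists per cycling cell after thinning to 2000 UMIs, 558 cells of batch 1 and 137 of batch 2, 1 point a cell with a small random offset. The dashed line marks equal counts, and 88.5% and 82.5% of cells lie above it.

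Genes that the counts did not use differed along that range. Cells were ranked in each batch by the G2/M count less the S count and split into 3 nearly equal groups, and the S end (186 and 45 cells) was set beside the G2/M end (186 and 46 cells). Ccne1 and Ccne2, the cyclins of S-phase entry, were highest at the S end, with Ccne1 at 34.9 and 47.4 CPM against 6.88 and 2.89 and Ccne2 at 34.2 and 44.6 CPM against 4.16 and 2.31. E2f1 was 19.7 and 18.1 CPM at the S end against 2.72 and 5.20, and the mismatch repair gene Msh6 was 22.8 and 24.4 CPM against 5.97 and 2.89. At the G2/M end Ccnb1 (cyclin B1) was 126 and 118 CPM against 25.8 and 23.0, and Cdk1 was 244 and 245 CPM against 80.2 and 66.9. Cdc25b, the phosphatase that activates Cdk1, was 25.5 and 19.6 CPM against 5.13 and 4.88. Cdkn2d, the inhibitor that was higher in cycling cells, was also higher at the G2/M end, at 41.1 and 48.0 CPM against 9.91 and 10.5 at the S end. Replication-dependent histone genes, whose transcripts belong to S phase, were higher at the G2/M end. Hist1h4d was 147 and 190 CPM there against 55.8 and 39.7 at the S end, and Hist1h1b was 312.5 and 336 CPM against 185.5 and 123, so not all S-phase genes followed the naming of the ends. Immediate early genes and heat shock genes ran the other way, with Jun at 689 and 778 CPM at the S end and 388 and 243 at the G2/M end Junb at 209 and 221 CPM against 78.0 and 78.6, and Hspa1b at 431 and 258 CPM against 148.5 and 107. Lgr5 was nearly level, at 24.6 and 14.6 CPM against 17.9 and 13.9. Median depth differed little between the ends, at 26959.5 against 27236 UMIs in batch 1 and 31454 against 35054 in batch 2, while the mean Mki67 and Top2a count rose from 9.99 to 26.9 in batch 1 and from 10.1 to 39.0 in batch 2.

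Crypt base genes were found in part of the cycling cells. Lgr5 (chr10:115450311-115587780, minus strand) had a UMI in 20.2% of cells in batch 1 and 18.1% in batch 2, against 0 of 421 and 0 of 856 leukocyte barcodes. Ascl2, a stem-cell transcription factor gene, was seen in 23.1% and 26.8%, against 0.238% and 0.350% of leukocyte barcodes, and the Wnt target Axin2 in 36.7% and 45.7% against 0.713% and 0.467%. Olfm4, a stem-cell marker of the small intestine, had a UMI in 0 cells of 559 in batch 1, which allows a share of cells with a UMI of up to 0.537%, and in 1 cell in batch 2. Leukocyte barcodes held an Olfm4 UMI in 2.61% and 4.32%, a larger share than the cycling cells. They therefore give no background for this gene, and whether leukocytes express it was not tested. Leukocyte barcodes were several times shallower, so these unthinned shares are not at matched depth. After thinning Lgr5 was seen in 3.94% and 2.92% of cycling cells and in none of the leukocyte barcodes.

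The 113 and 25 cycling cells with an Lgr5 UMI were set beside the 446 and 113 without. Ascl2 was 43.2 and 99.3 CPM against 11.2 and 12.8, Smoc2 was 108 and 136 CPM against 21.1 and 19.2, and Sox4 was 182 and 241 CPM against 69.1 and 52.7. The hormone gene Guca2a of more mature cells was 173 and 29.9 CPM against 362 and 419. The median G2/M count was 14 and 17 UMIs against 15 and 15, and the median S count 4 and 5 against 3 and 3. Summed fork genes were 1541 and 1520 CPM against 1289 and 1186, and summed spindle genes 4158 and 4671 against 4051 and 3783. Depths were similar, at 29070 and 34223 UMIs against 26696 and 33311. Cells with and without Lgr5 UMIs thus differed in crypt genes and hardly in mitotic ones, with sampling of a low transcript deciding part of the split.

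Secretory precursors were rare. Atoh1, the master regulator of the secretory fate, had a UMI in 3.04% and 2.90% of cells against 0.238% and 0.234% of leukocyte barcodes, and its target ligand Dll1 in 4.47% and 7.25% against 0% and 0.234%. Hes1, the Notch target that represses Atoh1, was seen in 90.5% and 94.9%, against 15.2% and 17.3% of leukocyte barcodes. The 35 and 14 cells with Atoh1 or Dll1 held the secretory gene Reg4 at 56.9 and 17.7 CPM against 4.55 and 1.61 in the others. Neurog3, which starts the enteroendocrine fate, was found in 1 cell of batch 1 and in 0 of 138 cells of batch 2, which allows a share of cells with a UMI of up to 2.17%. Both limits come from 3 counts and do not bound the cells that express the gene. The Muc2, Chga and Chgb limits of the rule remove later secretory cells, so these shares do not describe all dividing cells of the crypt.

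A few cycling cells already carried a colonocyte programme. In 28 and 4 cells (5.01% and 2.90%) Car1 made up at least 1% of UMIs, although the median cycling cell held 3 Car1 UMIs in each batch and 66.5% and 64.4% of leukocyte barcodes held at least 1. These cells had Krt20 at 230 and 274 CPM against 30.3 and 52.5 in the other cycling cells, and Ncl at 452 and 324 CPM against 656 and 685. Their median depth was 38943 and 53483 UMIs against 26845 and 33000, and the part of doublets of a colonocyte and a cycling cell was not tested.

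The share of cycling cells among gated epithelial cells was 20.7% in batch 1 and 10.8% in batch 2. Only part of the cells had a tag, since 409 of 559 and 90 of 138 cycling cells passed no tag limit. Tags separated unevenly. Cycling cells called Ctrl_DSS held a median of 240 and 213.5 UMIs of their tag, against 100 and 93 in those without a tag. For TG_DSS this was 511.5 and 421 against 289 and 176.5. For TG_WT it was 71 and 267 against 13 and 18, and for Ctrl_WT 292 and 84 against 120 and 22. In batch 1 cells called for other tags also held TG_DSS tag UMIs near the 289 of untagged cells. The medians were 303 under Ctrl_WT, 303.5 under Ctrl_DSS and 297.5 under TG_WT. The part of wrong tag calls was not tested. Under Ctrl_DSS cycling cells were 39.4% (52 of 132, exact 95% interval 31.0 to 48.3) and 22.2% (30 of 135, 15.5 to 30.2) of gated cells. Under TG_WT they were 13.9% (20 of 144, 8.69 to 20.6) and 7.23% (6 of 83, 2.70 to 15.1). Under TG_DSS they were 27.2% (52 of 191, 21.0 to 34.1) and 6.67% (5 of 75, 2.20 to 14.9), and under Ctrl_WT 20.6% (7 of 34, 8.70 to 37.9) and 9.38% (3 of 32, 1.98 to 25.0). Means over the batches were 30.8% ± 12.1 for Ctrl_DSS, 10.6% ± 4.71 for TG_WT, 16.9% ± 14.5 for TG_DSS and 14.98% ± 7.93 for Ctrl_WT (SD, n = 2). Ctrl_DSS was the highest tag in both batches, and its interval lay above that of TG_WT in the same batch. Gated Ctrl_DSS cells were also deeper, with medians of 22372 and 23446 UMIs against 17342 and 18939 under TG_WT, while the rule sets a fixed UMI limit. Because 2 batches a tag allow no exact permutation p below 0.33, no test is given, and intervals cover counting error only. Without the TG_DSS cells of batch 2 the TG_DSS share is the 27.2% of batch 1. A second tag call scaled each tag by its batch median and kept the highest only where it was at least 3 times the next. Under this highest-tag call the mean shares were 35.2% for Ctrl_DSS, 10.07% for TG_WT, 10.1% for TG_DSS and 12.5% for Ctrl_WT. TG_DSS then lay level with TG_WT, but its cycling cells were too few under this call for a contrast to be fitted. Cells were also thinned to 5000 UMIs and counted with at least 1 UMI of either gene. The shares were then 43.8% and 18.9% for Ctrl_DSS and 16.5% and 13.4% for TG_WT. They were 31.7% and 6.15% for TG_DSS and 24.2% and 10.0% for Ctrl_WT. At this matched depth the intervals of Ctrl_DSS and TG_WT lay apart in batch 1 (35 to 52.8 and 10.5 to 24.2). In batch 2 they overlapped (12.3 to 26.9 and 6.33 to 24).

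Expression between tags was tested on counts summed per tag and batch over the cycling cells, with batch as a term. Ctrl_WT, with 7 and 3 cells, gave no contrast. The 3 contrasts of the other tags share their samples, and the TG_DSS sum of batch 2 rests on 5 cells and the TG_WT sum on 6. Of 8482 genes tested with edgeR's quasi-likelihood test and Benjamini-Hochberg adjustment, 5 were higher (0.0589%) and 3 lower (0.0354%) in TG_DSS than in Ctrl_DSS. In Ctrl_DSS against TG_WT 0 were higher (0%) and 4 lower (0.0472%), and in TG_DSS against TG_WT 0 passed in either direction (0%). In that last contrast 413 genes had p under 0.05 before adjustment, and DESeq2 called 0. Without the TG_DSS cells of batch 2 the counts were 14, 29 and 10 in these 3 contrasts, and without those of batch 1 they were 0, 1 and 0, with none of the genes named below still called.

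Reg3g (chr6:78466269-78468872, minus strand), an antibacterial lectin gene of injured epithelium, was among the 5 genes higher in TG_DSS. Its level was 1810 and 5315 CPM under TG_DSS, 488 and 742 under Ctrl_DSS, 314 and 2241 under TG_WT and 73.6 and 419 under Ctrl_WT. TG_DSS was the highest tag in both batches. The log2 difference from Ctrl_DSS was 2.28 (SE 0.369, edgeR adjusted p = 0.0154), and that from TG_WT was 1.87 (SE 0.369, edgeR adjusted p = 0.215). In batch 1 37 of 52 TG_DSS cells held a Reg3g UMI, whereas in batch 2 1 of the 5 cells gave 70.3% of the UMIs. The related lectin gene Reg3b pointed the same way at 7853 and 12820 CPM against 1901 and 790 and did not pass the test (edgeR log2 difference 2.69, adjusted p = 0.124). Reg3g was the 1 gene of 7 tested of the injury list that passed, and the call was lost with DESeq2 (adjusted p of 1).

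The other genes higher in TG_DSS than in Ctrl_DSS were 2210407C18Rik and 1810065E05Rik, whose functions are not established, Myl7, an atrial myosin light chain gene, and Sptssb, a subunit of the enzyme that starts sphingolipid synthesis. For 1810065E05Rik the levels were 585 and 820 CPM under TG_DSS, 224 and 336 under Ctrl_DSS and 646 and 1015 under TG_WT. For 2210407C18Rik they were 92.0 and 839 CPM, 30.6 and 139, and 90.5 and 876 in the same order. In both genes the Ctrl_DSS sum was below those of TG_WT and TG_DSS in each batch, and they passed both as higher in TG_DSS and as lower in Ctrl_DSS than TG_WT. The log2 differences of TG_DSS from Ctrl_DSS were 1.36 (SE 0.208) for 1810065E05Rik and 2.17 (SE 0.288) for 2210407C18Rik, with edgeR adjusted p of 0.00991 and 0.00767. Single cells weighed on these sums, with 70.0% and 55.2% of the TG_WT UMIs of 1810065E05Rik and 74.3% of the TG_DSS UMIs of 2210407C18Rik in batch 2 from 1 cell each. Myl7 was 50.0 and 66.7 CPM against 5.998 and 11.5, and Sptssb was 79.8 and 94.1 CPM against 21.0 and 14.1. For Sptssb 1 cell gave 49.3% and 79.2% of the TG_DSS UMIs in the 2 batches, and its edgeR adjusted p of 0.0382 became 0.0932 at no more than 10% mitochondrial UMIs and 0.0856 with DESeq2.

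Lower in TG_DSS than in Ctrl_DSS were Sycn, the zymogen granule protein syncollin, Wfdc2, a secreted protease inhibitor of epithelia, and Ptcra, the pre-T-cell receptor alpha gene. Sycn was 705 and 263 CPM under TG_DSS, 2638 and 1336 under Ctrl_DSS and 1837 and 249 under TG_WT. Its log2 difference of TG_DSS from Ctrl_DSS was -2.16 (SE 0.316, edgeR adjusted p = 0.00991). Wfdc2 was 461 and 200 CPM against 1039 and 542, with 49 of 52 and 26 of 30 Ctrl_DSS cells holding a UMI. Its log2 difference was -1.27 (SE 0.217, edgeR adjusted p = 0.0263), which became 0.143 without the TG_DSS cells of batch 2. Ptcra rested on 1 batch, with 101 UMIs from 6 Ctrl_DSS cells in batch 1 and 1 UMI in batch 2, against 9 and 0 UMIs under TG_DSS.

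Lower in Ctrl_DSS than in TG_WT, beside the 2 genes above, were Emp1, an epithelial membrane protein gene on the absorptive list, and Cyp2c65, a cytochrome P450 gene of the gut. Emp1 was 19.2 and 14.99 CPM against 67.1 and 259, a log2 difference of -2.81 (SE 0.428, edgeR adjusted p = 0.0119), and single cells gave 69.6% and 51.9% of the TG_WT UMIs. Cyp2c65 was 21.6 and 59.95 CPM against 102 and 201, a log2 difference of -1.87 (SE 0.287, edgeR adjusted p = 0.0119). Car1 was 1089 and 2343 CPM under Ctrl_DSS, 3216 and 4358 under TG_WT and 3635 and 2985 under TG_DSS, and did not pass (edgeR adjusted p of 0.146 and 0.158). The 5 smallest p-values of TG_DSS against TG_WT belonged to Ptcra, Grip1, Jun, Reg3g and Gsn, with edgeR adjusted p from 0.163 to 0.233. Jun, an immediate early factor, was 473 and 302 CPM against 1016 and 766. The dissociation stress list, which holds Jun, summed to 2016 and 1561 CPM under TG_DSS, 3800 and 2476 under TG_WT and 2475 and 1626 under Ctrl_DSS. In TG_DSS against TG_WT 7 of its 9 genes had a negative difference, with a median of -0.50 and 0 past the test, and the part of tissue handling was not tested. In Gsn 1 cell gave 94.1% of the 101 TG_WT UMIs of batch 1, a sum that also held the stromal markers at 264 CPM and the enteroendocrine hormone genes Gcg and Pyy at 1772 and 944 CPM.

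**Figure D5:**
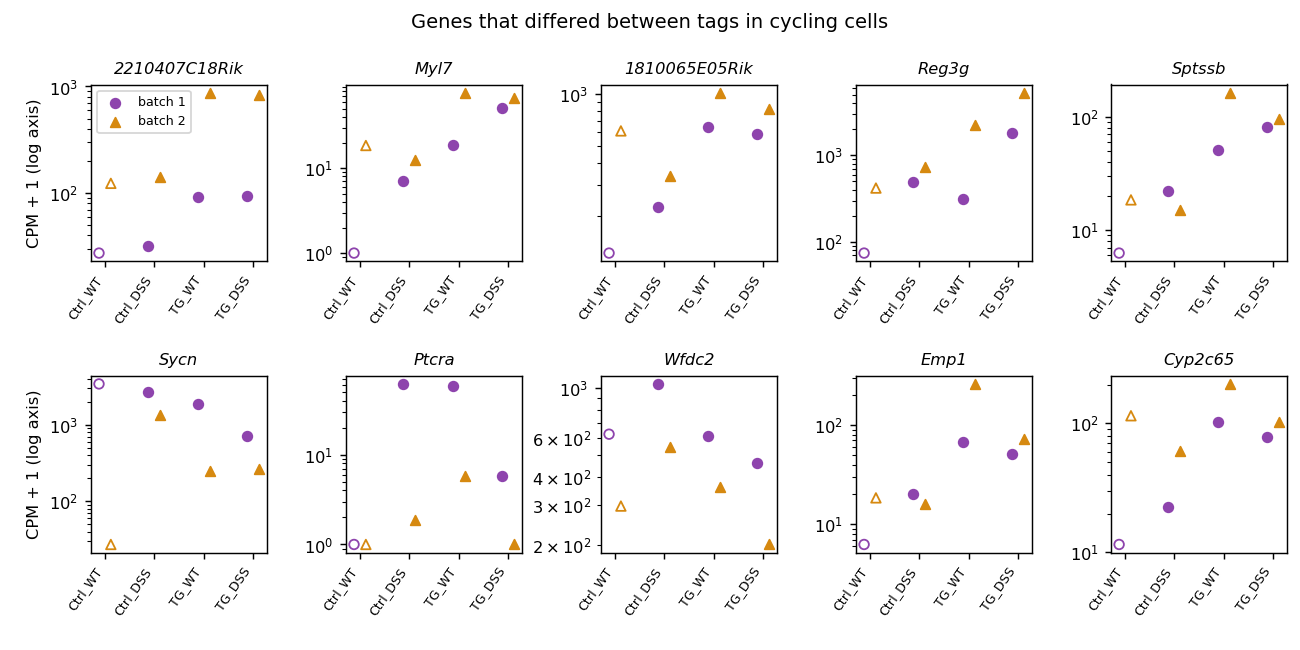
Level of the 10 genes called in a tag contrast, in CPM plus 1 on log axes, per tag, batch 1 as circles and batch 2 as triangles. Open symbols are Ctrl_WT, which was in no test. In 2210407C18Rik, 1810065E05Rik, Emp1 and Cyp2c65, Ctrl_DSS lies below TG_WT and TG_DSS in both batches.

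No gene of the cell cycle lists passed the test between tags. Of the lists for licensing, fork, nucleotides, spindle, kinetochore, checkpoint, anaphase, chromosome structure, histones and repair, 0 genes passed in any of the 3 contrasts. Over all genes tested at most 0.0589% passed in a direction, so 0 lies near that share and is not particular to these lists. In Ctrl_DSS against TG_WT, 19 of 20 nucleotide synthesis genes and 13 of 14 histone genes had a positive difference, with medians of 0.46 and 0.44, beside 0.01 over all genes tested. In TG_DSS against TG_WT, which shares the TG_WT cells, 19 of 20 and 12 of 14 were positive, with medians of 0.50 and 0.62 beside -0.01. The summed histone genes differed between batches, at 1171 CPM under TG_DSS against 1232 under TG_WT in batch 1. In batch 2 they were 2051 against 527 CPM, from 5 and 6 cells, so the positive histone median leans on these cells. Of the ribosome biogenesis genes 23 of 24 were positive, with a median of 0.48. TG_WT was the lowest tag for the summed fork genes in both batches, at 1151 CPM in batch 1 and 872 in batch 2, against 1199 and 1129 under Ctrl_DSS, 1233 and 1212 under TG_DSS and 1468 and 2602 under Ctrl_WT. Mki67 differed by 0.03 between Ctrl_DSS and TG_WT and by -0.21 between TG_DSS and Ctrl_DSS on the log2 scale, values that the rule on its UMIs constrains. The share of cells with more G2/M than S UMIs was 88.5% in batch 1 and 83.3% in batch 2 under Ctrl_DSS, 85.0% and 100% under TG_WT and 88.5% and 60% under TG_DSS, so the order of the tags differed between batches.

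Among the genes of the study's question, Jup passed in some fits, and Nlrp6, Casp1, Il18 and Mapk14 passed in none that was run. With all 6 sums and the filter on low counts, Jup had log2 differences of -3.16 (SE 0.634, edgeR adjusted p = 0.103) for Ctrl_DSS against TG_WT, 1.81 (edgeR adjusted p = 0.868) for TG_DSS against Ctrl_DSS and -1.36 (edgeR adjusted p = 0.939) for TG_DSS against TG_WT. Without the TG_DSS cells of batch 2 the Jup differences were -3.12, 0.03 and -3.09 in the same order. That sum was set apart for its high Jup and its removal leaves TG_DSS with 1 sum, so no test is given. Without the TG_DSS cells of batch 1 instead, the difference of TG_DSS from TG_WT was 0.43. In Ctrl_DSS against TG_WT, Jup passed with the highest-tag call (-2.60, edgeR adjusted p = 0.00277) and without barcodes over 60000 UMIs (-2.93, edgeR adjusted p = 1.51e-07). Over all settings run for that contrast the Jup difference ran from -4.84 to -2. Casp1 was 89.4 and 101 CPM under Ctrl_DSS, 84.6 and 148.5 under TG_WT and 93.0 and 141 under TG_DSS. Nlrp6 was 59.4 and 83.8 CPM, 89.0 and 86.2, and 74.4 and 58.8 in the same order. Il18 was 88.2 and 32.6 CPM, 114 and 19.2, and 77.6 and 66.7. Mapk14 was 28.2 and 20.3 CPM, 24.8 and 14.4, and 26.6 and 23.5. Casp1, Nlrp6, Il18 and Mapk14 differed by -0.24 to 0.36 on the log2 scale over the 3 contrasts, with standard errors from 0.253 to 0.472, so changes of the size of those errors were not detectable with these cells. In Ctrl_DSS against TG_WT, 0 of 11 junction and 1 of 12 inflammasome genes tested were positive, with medians of -0.37 and -0.32. Of 11 p38 genes 8 were positive (median 0.26). In TG_DSS against TG_WT, 2 of 11 junction and 4 of 12 inflammasome genes were positive, and 0 genes of these lists passed in either contrast.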

How the data were processed

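Colon cells of 2 batches were captured with 10x Chromium 3' v3.1 chemistry, each batch pooling 4 hashtagged conditions. The deposited files hold raw UMI counts for all barcodes, made with Cell Ranger 7.0.0 on mm10, per the submitters' processing notes. The rows are 32285 genes and 4 tags. Gene coordinates are those of GENCODE M21 on GRCm38, and promoters those of RefSeq.

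Cells were chosen by the limits in the report. The members, gene lists and comparisons were chosen with earlier results of these data known. The Lgr5 limit of 1 UMI, the Car1 limit of 1% and the mark of 60000 UMIs were set after the numbers of cells were seen. Tags were called per batch with a 2-component Gaussian mixture of log tag UMIs (scikit-learn 1.9.0), a step corrected after the numbers of tagged cells were seen and before Jup was read. Barcodes over 1 tag limit stayed in the members and out of tag groups.

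For each tag in each batch, counts were added up over cycling cells, and edgeR 4.0.16 tested these sums (R 4.3.3; TMM, quasi-likelihood F test, batch as a term, Benjamini-Hochberg adjustment, limit 0.05). The planned minimum of 10 cells per sum left no contrast, so the results are given for a minimum of 5, which kept 6 sums. The batch number is named as a batch by the labels, and sums of 1 batch deviated together, with correlations of 0.13, 0.18 and 0.22 for its 3 tag pairs. DESeq2 1.42.0 was an alternative. On simulated counts the test recovered 99% of genes changed by 2 on the log2 scale and 100% of those changed by 3. The simulation had a small spread set in advance, no batch effect and changes only in well expressed genes. In the real sums single cells gave much of some genes' UMIs, so this recovery does not measure the power there. Intervals are exact (Clopper-Pearson or Poisson, scipy 1.17.1).

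Per list, genes with the highest level or largest ratio were named. In the tag contrasts the called genes of the same sign in both batches were named, or the 5 smallest p-values where none passed, and Jup, Nlrp6, Casp1, Il18 and Mapk14 always. Outside the lists, 15 genes a direction were named by the smaller of both batches' folds. Jchain, Reg3b, Car1 by tag and the exceptions within lists were picked after their values were seen.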

Additional observations from a re-analysis of the deposited data

How the results depend on the processing

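Calls between tags depended on single sums of cells. Without the replicate block of batch, 0 genes passed in each of the 3 contrasts, and no gene called with the block kept its call. Over the fits without 1 sum each, the calls ran from 0 to 65 for TG_DSS against TG_WT, from 0 to 124 for TG_DSS against Ctrl_DSS and from 1 to 128 for Ctrl_DSS against TG_WT. Without a filter on low counts they were 48, 83 and 90. For Ctrl_DSS against TG_WT they were 8 with DESeq2, 42 with the highest-tag call and, chosen after seeing the data, 103 without barcodes over 60000 UMIs. Reg3g, Sptssb and Ptcra lost their call with DESeq2, which gave no adjusted p for Emp1, and Sptssb also at 10% mitochondrial UMIs. Jup gained calls in several of these fits, some of which leave only 1 sum under a tag. At least 10 cells per sum, or cells without leukocyte UMIs, left no contrast that could be fitted, nor did the highest tag or the 60000 limit for TG_DSS.

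At 4-fold, 209 genes were higher and 109 lower than in non-dividing cells, 117 and 22 than in Lgr5 cells and 457 and 175 than in Car1-high cells. From 5 CPM, 1116 and 595, 441 and 403, and 2313 were called in the same order, the last for higher only. With 1 batch alone the ranges were 759 to 1193 and 433 to 646, 413 to 708 and 438 to 548, and 1541 to 1773 and 677 to 765. More G2/M than S UMIs were held by a mean of 85.51% of cells, 90.35% without thinning and 82.48% to 88.53% by batch.

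The share of cycling cells by batch ran from 10.84% to 20.73% in all, 22.22% to 39.39% for Ctrl_DSS, 7.229% to 13.89% for TG_WT, 6.667% to 27.23% for TG_DSS and 9.375% to 20.59% for Ctrl_WT.

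Small differences changed sign. Nlrp6 in TG_DSS against Ctrl_DSS was -0.03 with no replicate block and with DESeq2 and -0.01 at 10% mitochondrial UMIs, from 0.01, and Mapk14 0.06 and 0.04 in the first 2 of these, from -0.03. Il18 in TG_DSS against TG_WT was -0.03 at 10% mitochondrial UMIs, from 0.05, and Casp1 in Ctrl_DSS against TG_WT 0.02 without barcodes over 60000 UMIs, from -0.11. Leaving out 1 sum moved Jup in TG_DSS against TG_WT over -3.09 to 0.43. Casp1 ran over -0.14 to 0.37, -0.06 to 0.65 and -0.48 to 0.22 in TG_DSS against TG_WT, TG_DSS against Ctrl_DSS and Ctrl_DSS against TG_WT, and Il18 over -0.35 to 1.33, -0.36 to 1.29 and -0.51 to 1.15. Nlrp6 ran over -0.32 to 0.21 and -0.44 to 0.05 in the last 2, and Mapk14 over -0.18 to 0.35 in TG_DSS against Ctrl_DSS. The cause of these changes was not tested. The smallest sums held 5 and 6 cells.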
